A study of Populus tomentosa with 9 samples.

Results

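The H2O2 response of the overexpression line was read from 2 of the 9 RNA-seq libraries made from suspension cells of the poplar Populus tomentosa. One library came from overexpression cells exposed to 10 mM H2O2 for 3 h, and the other from overexpression cells kept under normal conditions. Every line was grown in shaken culture in the dark and sampled at day 5 after subculturing. The other 7 libraries were the overexpression line given 1 mM ASA for 3 h (an abbreviation that the labels do not spell out) and a wild type and an antisense line, each as control, H2O2 and ASA. The labels name neither the gene that is overexpressed nor the promoter, and each genotype is 1 cell line, so the level of the targeted gene cannot be given and a feature of the line cannot be told apart from an effect of its construct. Each condition had 1 library. No difference below therefore has a replicate spread or a test, and "higher" and "lower" compare single libraries.

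Hydrogen peroxide is a reactive oxygen species that plant cells both produce as a signal and destroy with peroxidases, catalase and thiol-based enzymes. Added from outside, it typically acts on antioxidant and detoxification enzymes, on heat shock proteins that refold damaged proteins, and on hormone and defence pathways. Alternative oxidase, which lets mitochondria pass electrons to oxygen without making ATP, is known as a gene family that responds to oxidative stress in many plants.

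Levels are FPKM, reads scaled to gene length and library size, and differences are log2((FPKM + 1) in H2O2 / (FPKM + 1) in control). Genes with at least 1 FPKM in the higher of the 2 libraries were kept, and "at least 2-fold" means a difference of 1 or more on this scale. Folds given with a 95% interval are plain FPKM ratios, and the interval covers counting error only. Protein descriptions came from the authors' comparison tables and exist only for genes that the authors had listed as different from wild type somewhere in the series. For that reason each list of described genes is read against all described genes and not against all genes.

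The H2O2 and ASA libraries of the overexpression line stood apart from the rest. On the first principal component of log2(FPKM + 1), which held 40.1% of the variance, they lay at 87.4 and 70.6, while the other 7 libraries lay between -34.3 and -6.59. The whole response rests on this 1 H2O2 library and cannot be given without it. The treated antisense libraries went against their labels. Across 23350 genes the H2O2 minus ASA difference of the antisense line had a Pearson r of -0.838 with that of wild type, so these libraries are called by their labels and no direction is drawn from them. Depth was similar in all 9 libraries, from 17102469 to 19629543 reads, with 19365474 in the overexpression H2O2 library and 19629543 in its control. Markers of other tissues were few among described genes. The 2 genes with chlorophyll-binding or photosystem words summed to 10.9 FPKM in the control and 6.70 in H2O2, below the 15.2 to 47.3 of the 6 libraries of the other lines, and neither was at 0. Described stem xylem genes, 24 in all, summed to 1274 and 1316 FPKM, against 729 to 1700 in the other lines. The part of these levels in the results below was not tested. The 5 genes matched by the seed storage words were 3 germins, a cysteamine dioxygenase and a mannose-6-phosphate isomerase by their descriptions, so they are no marker of seed tissue.

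Of 23963 genes kept, 1355 were at least 2-fold higher in the H2O2 library (5.65%) and 2282 at least 2-fold lower (9.52%). At 4-fold the counts were 174 and 420. Higher genes thus made up 37.3% of those past 2-fold, but this imbalance depended on scaling. The median of all genes was -0.12, and once the differences were centred on it 1773 were higher and 1793 lower, a share of 49.7%. With TMM scaling, which aligns the bulk of genes between libraries, 1749 were higher and 1829 lower, a share of 48.9%. All differences given here should be read against that shift of -0.12. Counting error was a small part of them, since the 95% interval of the ratio included 1 for 13 of the 3637 genes. Among the 2710 kept genes with a description, 372 were at least 2-fold higher (13.7%) and 708 at least 2-fold lower (26.1%), with a median of -0.26.

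The H2O2 library was also placed among the 6 wild type and antisense libraries. Over all kept genes it was above all 6 in 24.6% and below all 6 in 29.5%, and the overexpression control was above all 6 in 22% and below all 6 in 13.9%. Among described genes the H2O2 shares were 23.7% and 37.2%, and the control shares 16.9% and 16.6%. Genes past 2-fold were chosen by the same H2O2 library, so their higher shares are a description and no support. Of the 1355 higher genes, 1110 (81.9%) were above all 6 wild type and antisense libraries in the overexpression H2O2 library, and 352 (26.0%) were below all 6 in the overexpression control. For the 2282 lower genes, the H2O2 library was below all 6 in 1855 (81.3%), and the control was above all 6 in 818 (35.8%). Without the treated antisense libraries, the H2O2 library lay beyond the remaining 4 for 1140 higher and 1932 lower genes. At the edge of the 2-fold rule, POPTR_0005s14680 (1.00) counted as higher and POPTR_0007s03230 (0.999) did not.

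**Figure D1:**
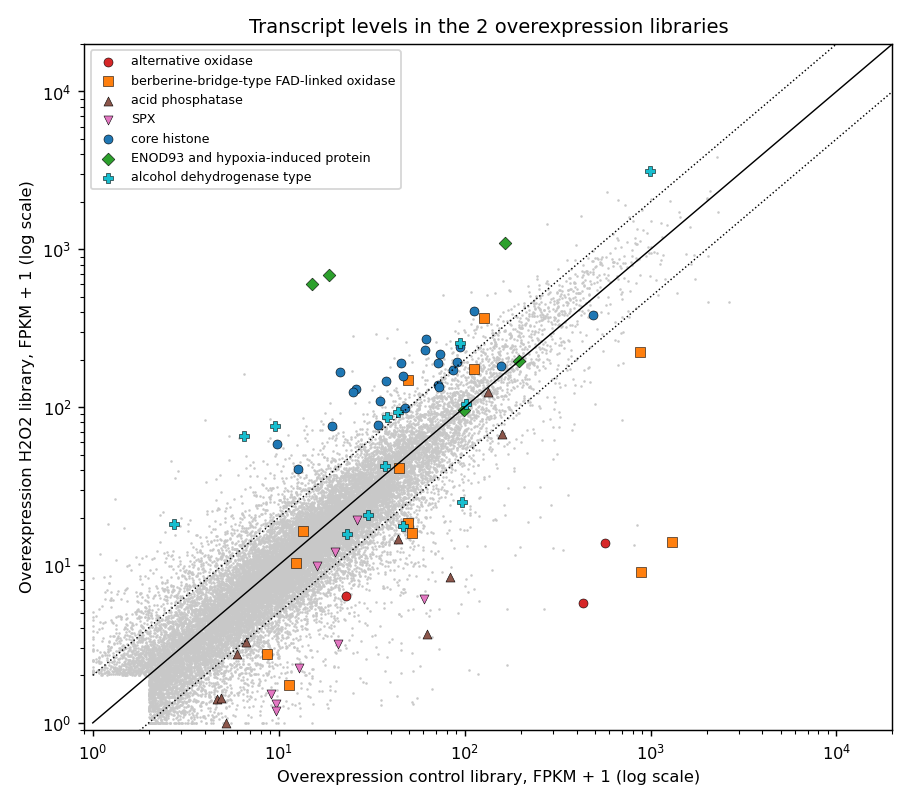
Level of each kept gene in the overexpression control library (x axis, FPKM + 1, log scale) and the overexpression H2O2 library (y axis, FPKM + 1, log scale), with 7 gene lists in colour, the line of equality drawn solid and the 2-fold lines dotted. The alternative oxidases POPTR_0012s01620 and POPTR_0012s01630 and 2 FAD-linked oxidases lie far below the dotted lines. The remaining alternative oxidase, POPTR_0015s02150, lies below them by less (-1.85). Above them lie 3 ENOD93 and hypoxia-induced genes and 20 of 24 core histones.

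Among described genes, the 3 lowest differences on the log2(FPKM + 1) scale belonged to 2 FAD-linked oxidases and an alternative oxidase, although some genes at lower levels had larger plain folds. All 3 described alternative oxidases were lower, with a median of -5.36, whereas in wild type the same 3 genes had a median of -0.38 after H2O2. POPTR_0012s01620 had 434 FPKM in the overexpression control, 4.72 in H2O2 and 10.5 in ASA. Its wild type levels were 263 in control, 212 in H2O2 and 335 in ASA, and the antisense libraries labelled control, H2O2 and ASA held 447, 302 and 206. The gene was thus abundant in 7 libraries and scarce in the 2 treated overexpression libraries, and the H2O2 library was lower than its control by 91.9-fold (95% interval 78.0 to 109). POPTR_0012s01630 went from 566 to 12.8 FPKM, 44.3-fold lower (39.6 to 49.8), and the last, POPTR_0015s02150, from 21.9 to 5.35, 4.10-fold lower (3.46 to 4.86). The sources used here do not say how reads shared by near-identical copies were counted, so pairs of similar genes such as POPTR_0012s01620 and POPTR_0012s01630 are uncertain as separate measurements.

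FAD-linked oxidases of the berberine-bridge type, secreted flavoproteins that oxidise sugars and specialised metabolites, held the 2 lowest of these differences. POPTR_0254s00230 had 888 FPKM in control and 8.07 in H2O2, which is 110-fold lower (90.7 to 135). POPTR_0011s16560 had 1310 FPKM in the overexpression control, 13.0 in H2O2 and 11.7 in ASA, against 1221, 459 and 400 in wild type and 1684, 544 and 561 in the antisense line. Both were also lower after H2O2 in wild type, but by 1.36 and 1.41 on the log2 scale against 6.62 and 6.55 in the overexpression line. Of the 13 members of the list 7 were lower and 2 higher, with a median of -1.43. Another abundant member, POPTR_0001s46760, had 872 FPKM in control and 223 in H2O2, while in wild type it had 438 and 621.

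Enzymes that handle peroxides and toxic metabolites were mostly lower. Glutathione S-transferases, which couple glutathione to reactive compounds, had 13 of 22 members lower and 0 higher, with a median of -1.95. Their summed level was 6810 FPKM in control, 2000 in H2O2 and 3251 in ASA. In H2O2, 17 of the 22 were below all 6 libraries of the other lines, against 37.2% of described genes. The authors' deposited table listed 15 of the 22 as lower than wild type under H2O2 and 0 as higher. That listing used the same H2O2 library and only listed genes have descriptions, so the count of 17 is no independent evidence. POPTR_0019s15090 had 118 FPKM in control, 4.92 in H2O2 and 44.3 in ASA, 24.0-fold lower in H2O2 (19.4 to 30.0), and POPTR_0008s17500, the most abundant of the 4 members that differed most, had 697, 82.4 and 149. Haem peroxidases, which oxidise phenolics with H2O2, had 10 of 18 lower and 1 higher, with a median of -1.21. The leading one, POPTR_0003s21610, had 168 FPKM in control and 4.27 in H2O2, and it was also the peroxidase with a strong wild type difference, from 334 to 33.0. Thioredoxin and glutaredoxin genes, which reduce disulphides, had 3 of 6 lower and 0 higher. POPTR_0004s04940, a glutaredoxin, had 169 FPKM in control, 29.6 in H2O2 and 153 in ASA. Of described genes, 3 fitted the words for catalase, superoxide dismutase or peroxiredoxin, and none was a catalase. The 1 lower gene, POPTR_0001s44990, is a redoxin that was also counted among the thioredoxin genes. The peroxiredoxin POPTR_0016s07280 was at 0.57 and the superoxide dismutase POPTR_0015s12190 at -0.97. NADPH oxidases, which make superoxide outside the cell, had 2 of 5 lower and 0 higher. The 2 lower genes had only 4.49 and 6.09 FPKM in control. The most abundant member, POPTR_0005s02630, went up from 128 to 216 FPKM, short of 2-fold at 0.75.

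The 34 described UDP-glycosyltransferases, which attach sugars to hormones and other small molecules, had 16 lower and 1 higher (median -0.94). POPTR_0007s00740 had 104 FPKM in control and 1.15 in H2O2, 90.9-fold lower (67.3 to 126), and POPTR_0007s00760 had 66.1 and 0.633. Neither was below 30 FPKM in any library of the other lines. ABC transporters, which export metabolites, had 12 of 29 lower and 2 higher, led by Novel00224 with 56.9 and 1.28 FPKM and POPTR_0003s17740 with 51.3 and 1.79. Cytochrome P450 genes were split, with 11 of 32 lower and 7 higher. POPTR_0014s06770 went from 34.4 to 0.302 FPKM and POPTR_0014s03660 from 0.163 to 5.12. The 2-oxoglutarate-dependent dioxygenases, which hydroxylate hormones and phenolics, were split as well, with 7 of 22 kept members higher and 4 lower. One of them, POPTR_0002s07880, was nearly silent outside the treated overexpression libraries. It had 25.1 FPKM in H2O2 and 15.3 in ASA, 0.310 in the overexpression control and no more than 0.325 in the other 6 libraries.

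Other genes with the largest drops had varied roles. A GDSL lipase, of a family of secreted esterases, POPTR_0017s02500, had 168 FPKM in control and 1.31 in H2O2, 128-fold lower (91.5 to 185), with 60.1 and 62.8 in wild type. A second, POPTR_1677s00200, had 51.3 and 0.355, and 4 of 7 members of the family were lower and 2 higher. POPTR_0008s17940, described as glyceraldehyde 3-phosphate dehydrogenase, a glycolytic enzyme, had 812 and 12.3 FPKM. POPTR_0015s13170, a remorin (a plasma membrane protein), had 54.2 FPKM in the overexpression control and 0.436 in H2O2. Its level in the 6 libraries of the other lines was 1.60 to 4.33 FPKM, so this was a transcript that the overexpression control held at a level of its own. POPTR_0017s04600, a pyridoxal-phosphate aminotransferase, went from 338 to 11.4 FPKM, and POPTR_0028s00410, described as an NADH:ubiquinone/plastoquinone oxidoreductase, from 34.4 to 0.393.

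**Figure D2:**
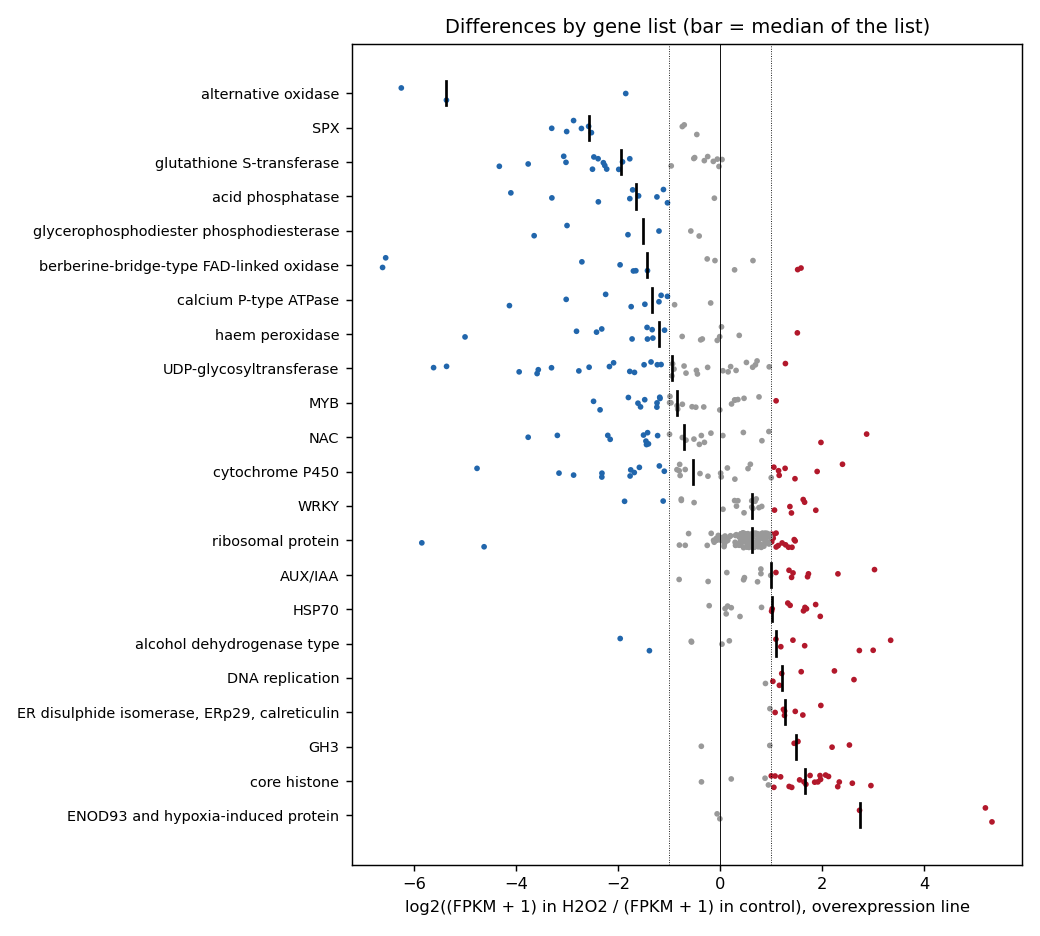
Difference of each kept member (point, log2 of the FPKM + 1 ratio, H2O2 over control, overexpression line) for 22 lists of described genes; black bars are list medians, dotted lines mark 2-fold, and red and blue points are at least 2-fold higher or lower. Alternative oxidases, SPX, glutathione S-transferase and acid phosphatase genes lie to the left, with medians of -5.36, -2.58, -1.95 and -1.66, and core histones lie to the right, with a median of 1.66.

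Genes tied to phosphate supply were lower together. SPX-domain proteins sense phosphate through inositol pyrophosphates, and acid phosphatases and glycerophosphodiester phosphodiesterases release phosphate from organic sources when it is scarce. In H2O2, 6 of 9 SPX genes were lower (median -2.58), 9 of 10 acid phosphatases (median -1.66) and 4 of 6 glycerophosphodiester phosphodiesterases (median -1.50), and none of the 3 lists had a higher member. POPTR_0018s13140, an SPX gene, had 59.5 FPKM in the overexpression control, 5.14 in H2O2 and 1.80 in ASA, against 369, 191 and 234 in wild type and 71.2, 32.2 and 45.7 in the antisense line. Its control level in the overexpression line was thus already below the wild type range. POPTR_0012s03910, an acid phosphatase, had 61.8, 2.66 and 1.93 FPKM in the overexpression line and 411, 261 and 146 in wild type, 23.3-fold lower in H2O2 than in control (18.1 to 30.4). POPTR_0001s33270, a phosphodiesterase, had 107 FPKM in control and 7.64 in H2O2. In the authors' deposited table of the overexpression line against wild type under control conditions, 6 of the 9 SPX, 9 of the 10 acid phosphatase and 4 of the 6 phosphodiesterase genes were already listed as lower. Descriptions exist only for listed genes, so these counts are no independent evidence.

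The 2 highest described genes were an ENOD93 gene and a gene with a hypoxia-induced protein domain. POPTR_0004s19470, an ENOD93 gene (an early nodulin family named in legumes), had 14.1 FPKM in the overexpression control, 606 in H2O2 and 708 in ASA. Wild type had 172 in control, 96.2 in H2O2 and 281 in ASA, and the antisense libraries labelled control, H2O2 and ASA had 44.5, 71.1 and 16.3. The overexpression line therefore held both the lowest level of the 9 libraries, in its control, and the 2 highest, and H2O2 was 42.8-fold above control (37.1 to 49.8). POPTR_0019s08380, with a hypoxia-induced protein domain, had 17.7 FPKM in control and 686 in H2O2, 38.7-fold higher (31.3 to 48.3). POPTR_0009s14600, another ENOD93 gene, had 165 and 1098. The 2 remaining members of this list of 5, both with the hypoxia-induced domain, were at -0.01 and -0.06, and the list had a median of 2.73, against -0.83 in wild type after H2O2.

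Alcohol dehydrogenase-type genes, which include the enzymes of ethanol fermentation and of lignin monomer reduction, had 7 of 13 higher and 2 lower, with a median of 1.09. In wild type after H2O2 the list had 1 higher and 8 lower and a median of -1.43, where 6.66% of all described genes were higher and 14% lower. POPTR_0542s00210 had 5.47 FPKM in the overexpression control, 64.5 in H2O2 and 81.0 in ASA, while wild type had 49.7 in control, 7.88 in H2O2 and 28.0 in ASA. POPTR_0542s00220 and POPTR_0005s06160 had the same pattern, from 8.51 to 74.9 and from 1.74 to 17.1 in the overexpression line and from 65.0 to 9.62 and from 12.2 to 3.09 in wild type. Starting points differed as well: each of these genes was several times lower in the overexpression control than in the wild type control. The part of this in the opposite directions was not tested. Of the 13, the authors' deposited tables against wild type listed 5 as lower and 1 as higher under control conditions. Under H2O2 they listed 7 as higher and 1 as lower. Descriptions exist only for listed genes, so the opposite medians are no independent evidence. The most abundant member, POPTR_0002s07290, had 995 and 3134 FPKM in the overexpression line and 2156 and 2308 in wild type. Sucrose synthases and pyruvate decarboxylases, which feed glycolysis and fermentation, had 2 of 11 higher and 2 lower. POPTR_0018s07380, a sucrose synthase, had 144 FPKM in the overexpression control and 530 in H2O2, and 634 and 218 in wild type.

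Respiratory chain genes were split, with 3 of 10 higher and 3 lower. The lowest, POPTR_0028s00410 (-4.67), has the gene name NDHB1 and a description that also names plastoquinone, so it may not belong to the respiratory chain. POPTR_0017s13320, an MLRQ subunit of the NADH-ubiquinone reductase complex, had 32.4 FPKM in control and 291 in H2O2, 8.97-fold higher (7.98 to 10.1), while POPTR_0010s06550, with the same description, had 207 and 30.4. Cytochrome c gene POPTR_0013s10300 went from 193 to 448 FPKM, and the mitochondrial adenine nucleotide translocator POPTR_0001s27480 from 110 to 363.

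**Figure D3:**
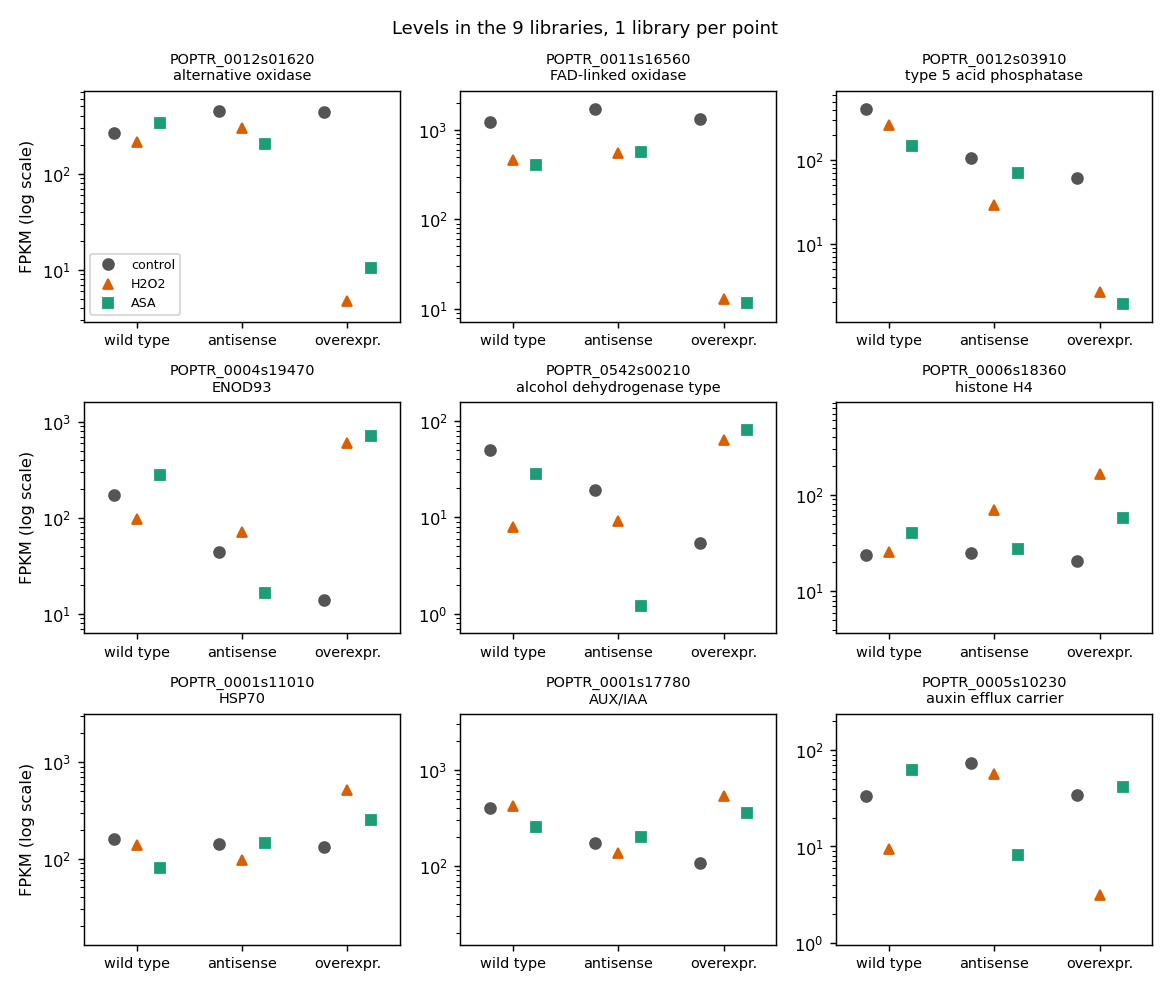
FPKM (log scale) of 9 named genes in the 9 libraries, 1 library per point, with lines of cells on the x axis and control, H2O2 and ASA as circles, triangles and squares; the treated antisense libraries are drawn as labelled. The alternative oxidase POPTR_0012s01620 is at 4.72 and 10.5 FPKM in the treated overexpression libraries and at 206 or more in the other 7, and the ENOD93 gene POPTR_0004s19470 is at 14.1 in the overexpression control and at 606 and 708 after treatment.

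Histone genes, whose transcripts accumulate mainly in cells that replicate their DNA, were higher almost throughout. Of 24 core histones, 20 were at least 2-fold higher and 0 lower, with a median of 1.66 against -0.04 in wild type after H2O2. Summed, they had 1784 FPKM in control, 4108 in H2O2 and 4820 in ASA. The H2O2 library was above all 6 libraries of the other lines for 21 of them, and the overexpression control was below all 6 for 9. Over all described genes these shares were 23.7% and 16.6%. In these bulk cultures, more cells of a type and more RNA per cell cannot be told apart. POPTR_0006s18360, the core histone with the largest difference, had 20.4 FPKM in control, 165 in H2O2 and 58.1 in ASA, 8.07-fold higher in H2O2 (6.97 to 9.39), and its range in the other lines was 24.0 to 70.5. POPTR_0004s03100 went from 8.75 to 57.7. Genes matched by words for linker histones, which bind the DNA between nucleosomes, had 3 of 4 higher and 1 lower. The higher genes POPTR_0010s11980 and POPTR_0008s13170 also have AT hook and high mobility group words in their descriptions, so they may not be linker histones. The remaining higher gene, POPTR_0010s08740, had 17.9 and 105 FPKM. In the authors' deposited table of the overexpression line against wild type, 17 of the 24 core histones were listed as higher under H2O2 and 0 under control conditions. That listing used the same H2O2 library and gave these genes their descriptions, so it is no independent evidence.

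DNA replication genes were higher as well, with 6 of 7 past 2-fold and a median of 1.21, and here the ASA library differed less from control (median 0.43, 1 of 7 higher). The share of all described genes higher in ASA was 14.4%. POPTR_0015s06800, a subunit of replication factor A, which coats single-stranded DNA, had 5.97 FPKM in the overexpression control, 41.9 in H2O2 and 19.6 in ASA. POPTR_0017s09610, the small subunit of ribonucleotide reductase, which makes deoxynucleotides, had 13.3, 66.2 and 18.2, and in wild type 12.9 in control and 26.2 in H2O2. POPTR_0001s12700 and POPTR_0009s12440, MCM helicase subunits that open replication origins, went from 11.1 to 35.4 and from 9.14 to 22.4. All 7 members were above all 6 libraries of the other lines in the H2O2 library, against 23.7% of described genes. The authors' deposited table listed 3 of the 7 as higher than wild type under H2O2 and 0 as lower. That listing used the same H2O2 library and only listed genes have descriptions, so this position is no independent evidence.

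The HSP70 chaperones as a list had medians of opposite sign after H2O2 and ASA. Of 16 HSP70 genes, which hold and refold proteins, 9 were at least 2-fold higher in H2O2 than in control and 0 lower (median 1.01), whereas in ASA 0 were higher and 9 lower (median -1.51). In ASA against control, 14.4% of all described genes were higher and 20.9% lower. Taken directly, 13 of the 16 were at least 2-fold higher in H2O2 than in ASA and 0 lower, with a median of 2.09, where 6.31% of all described genes were higher and 15.5% lower. In wild type, H2O2 left the list at a median of 0.00 with 1 member higher. POPTR_0001s11010, the most abundant of the 4 that differed most, had 131 FPKM in the overexpression control, 513 in H2O2 and 250 in ASA, 3.91-fold higher in H2O2 (3.80 to 4.03). Unlike the list median, this gene was above control in ASA too. Its 6 values in the other lines were 78.8 to 160. POPTR_0001s03420 had 12 FPKM in control, 40.0 in H2O2 and 1.49 in ASA.

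**Figure D4:**
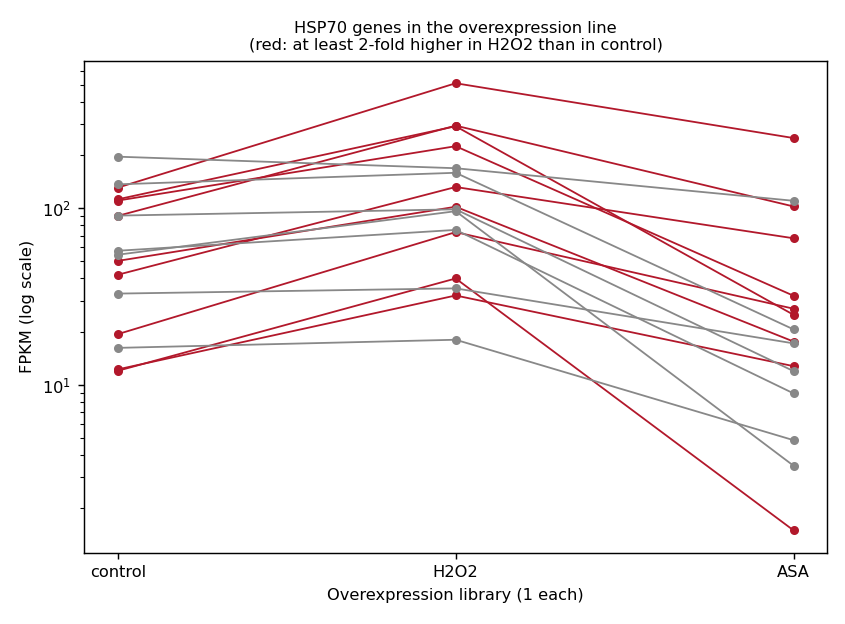
FPKM (log scale) of the 16 described HSP70 genes in the 3 overexpression libraries, each line joining 1 gene across control, H2O2 and ASA, with red for genes at least 2-fold higher in H2O2 than in control. The 9 red genes peak in the H2O2 library, and 9 of the 16 are at least 2-fold below control in the ASA library.

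Other chaperones were mixed. Among 4 HSP90 genes 2 were higher, led by POPTR_0005s26260 with 421 FPKM in control, 1633 in H2O2 and 1086 in ASA, 3.88-fold higher in H2O2 (3.82 to 3.94). Small heat shock proteins had 2 of 7 higher, and POPTR_0009s05440 had 24.9 FPKM in control, 125 in H2O2 and 11.9 in ASA. DnaJ co-chaperones had 3 of 18 higher and 5 lower, and of 7 heat shock factors, the transcription factors of these genes, 0 were higher and 2 lower. Heat shock factor POPTR_0007s11030 was just short of 2-fold at 0.98, with 117 FPKM in control and 232 in H2O2. Proteins that fold secreted proteins in the endoplasmic reticulum moved as 1 group, with 7 of 8 disulphide isomerase, ERp29 and calreticulin genes higher (median 1.26). All 8 were above the 6 libraries of the other lines, against 23.7% of described genes. The authors' deposited table listed 7 of the 8 as higher than wild type under H2O2 and 0 as lower. That listing used the same H2O2 library and only listed genes have descriptions, so this position is no independent evidence. Calreticulin gene POPTR_0015s12070, a calcium-binding chaperone, had 160 FPKM in control, 632 in H2O2 and 278 in ASA, against 110 to 185 in the other lines. In wild type the 8 genes had a median of -0.11 after H2O2, with 0 past 2-fold in either direction.

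Auxin genes differed by family. AUX/IAA proteins repress auxin responses and are themselves transcribed in response to auxin, and GH3 enzymes conjugate auxin or other hormones to amino acids. Of 17 AUX/IAA genes 8 were higher and 0 lower (median 0.99), and of 6 GH3 genes 4 were higher and 0 lower (median 1.49). For the AUX/IAA list, the H2O2 library was above all 6 libraries of the other lines in 2 genes, but the overexpression control was below all 6 in 8. POPTR_0001s17780 is an example, with 108 FPKM in the overexpression control, 537 in H2O2 and 358 in ASA, against 400, 425 and 257 in wild type and 173, 137 and 199 in the antisense line. POPTR_0005s23980 had 0.332 FPKM in the overexpression control and 9.83 in H2O2, still below the wild type control at 39.8. Of all described genes, the H2O2 library was above all 6 in 23.7% and the control below all 6 in 16.6%. The authors' deposited table listed 10 of the 17 AUX/IAA genes as lower than wild type under control conditions and 0 as higher. Descriptions exist only for listed genes, so the low control levels are no independent evidence. The overexpression control was close to the wild type control for 3 of the 4 higher GH3 genes. One of these, POPTR_0013s14740, had 0.612 FPKM in control and 8.32 in H2O2 and no more than 0.60 in any library of the other lines. Auxin efflux carriers, which export auxin from the cell, had 3 of 6 lower and 1 higher. POPTR_0005s10230 had 34.1 FPKM in the overexpression control, 3.11 in H2O2 and 41.4 in ASA, 11-fold lower in H2O2 (8.62 to 14.2), and 33.2, 9.52 and 61.8 in wild type. It was low in the H2O2 library of both lines and not in either ASA library. POPTR_0015s04570 went from 12 to 0.237, a level that the ASA library shared (0.272).

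Transcription factors did not move as a block. WRKY factors, known from defence and stress, had 6 of 23 higher and 2 lower (median 0.62), with a median of -0.52 in wild type, and 5 of them were at least 2-fold above both control and ASA. POPTR_0016s13600 had 10.7 FPKM in control, 35.1 in H2O2 and 2.94 in ASA, although the wild type control held 43.9. POPTR_0015s07530 had 6.59, 26.8 and 9.38, above the 6.08 to 11 of the other lines. NAC factors, which act in stress, senescence and wood formation, had 10 of 24 lower and 2 higher. POPTR_0019s13140 went from 18.0 to 0.398 FPKM. In the other direction, POPTR_0001s02710 had 5.70 FPKM in the overexpression control, 47.9 in H2O2 and 3.68 in ASA, 8.41-fold higher in H2O2 (7.01 to 10.2). Wild type had 4.87, 28.6 and 1.56, and the antisense libraries labelled control, H2O2 and ASA had 3.50, 3.83 and 42.9. This NAC gene was therefore high in the H2O2 libraries of the wild type and overexpression lines and in the antisense library labelled ASA. AP2/ERF factors had 11 of 31 lower and 2 higher, MYB factors 10 of 27 lower and 1 higher, and bHLH factors 1 of 17 lower and 2 higher. POPTR_0017s11760, a bHLH gene, had 38.5 FPKM in control and 179 in H2O2, within the 51.7 to 247 of the other lines.

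In calcium signalling, 8 of 10 calcium P-type ATPases, pumps that remove calcium from the cytosol, were lower and 0 higher (median -1.34). POPTR_0008s15890 had 36.4 FPKM in the overexpression control, 1.13 in H2O2 and 4.51 in ASA, 32.1-fold lower in H2O2 (25.1 to 41.7). EF-hand calcium-binding genes had 10 of 40 lower and 2 higher, close to the 26.1% of described genes that were lower. Protein kinases were also near the described background, with 35 of 146 kept members lower and 15 higher, and protein phosphatases 2C, which include abscisic acid signalling components, had 1 of 11 in each direction.

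Cell wall genes were divided within families. Expansins, which loosen walls, had 5 of 14 higher and 4 lower: POPTR_0006s19310 went from 140 to 18.3 FPKM and POPTR_0013s15080 from 12.7 to 71.1. Xyloglucan endotransglucosylases, which cut and rejoin wall polymers, had 4 of 13 lower and 0 higher, and pectinesterases and pectate lyases 4 of 16 higher and 1 lower. Cellulose synthase-type genes had 1 of 10 lower, and that gene, POPTR_0010s08560, had 24.2 FPKM in control and 0.558 in H2O2. Lipid transfer and hydrophobic seed proteins, small secreted proteins, had 6 of 12 higher and 2 lower, led by POPTR_0001s00400 with 37.4 FPKM in control, 274 in H2O2 and 367 in ASA. Of the wound-induced proteins, 2 of 18 were higher in H2O2 and 8 in ASA. Of all described genes, 13.7% were higher in H2O2 and 14.4% in ASA. POPTR_0005s08000, a cell wall protein with an Ole e 1/extensin description, had 5.50 FPKM in control and 161 in H2O2, with 6.06 to 11.5 in the other lines. POPTR_0015s15430, squalene epoxidase of the sterol pathway, had 24.0 FPKM in control, 283 in H2O2 and 87.1 in ASA, with 32.4 to 118 in the other lines.

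Most ribosomal protein genes differed by less than 2-fold. Of 135, 123 were above 0 and 12 below, and 14 were at least 2-fold higher, a smaller share than the 13.7% of described genes, and 2 lower. Their median was 0.62, and wild type had a median of 0.61 after H2O2. In the overexpression H2O2 library 125 of the 135 were above all 6 libraries of the other lines, against 23.7% of described genes, and in the control 61 were, against 16.9%. The authors' deposited tables listed 56 of the 135 as higher than wild type under H2O2 and 2 as lower. Under control conditions they listed 33 as higher and 0 as lower. Descriptions exist only for listed genes, so these positions are no independent evidence. The 2 lower members were far from the rest: POPTR_0015s04710, an L19e gene, went from 116 to 1.04 FPKM and POPTR_0004s20500 from 52.0 to 1.14. Genes matched by translation factor words had 3 of 25 in each direction, with POPTR_0005s10150, initiation factor IF6, at 217 and 17.8 FPKM. Shared domain words also brought ribosomal protein, H/ACA ribonucleoprotein and ubiquitin-domain genes into this list. The lower member POPTR_0008s11840 (-1.47) was such a ubiquitin-domain gene.

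Wild type cells given the same H2O2 dose differed from their control in fewer genes, with 819 of 23652 at least 2-fold higher (3.46%) and 760 lower (3.21%). After centring, these counts were 655 and 940, and with TMM scaling 682 and 929. The 2 responses share no library. They had 196 higher genes in common, which is 14.5% of the overexpression list and 23.9% of the wild type list, and 261 lower genes, 11.4% and 34.3%. Opposite calls were fewer, with 73 genes higher in the overexpression line and lower in wild type, and 88 the other way. Across 23025 genes kept in both, Pearson r was 0.235 and Spearman rho 0.226, where genes are not independent replicates. The glycoside hydrolase POPTR_0016s00460 was among the genes high in both, with 4.43 and 65.0 FPKM in the overexpression line and 6.67 and 70.4 in wild type. Whether the lines differ beyond replicate error was not tested, since neither has replicates.

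**Figure D5:**
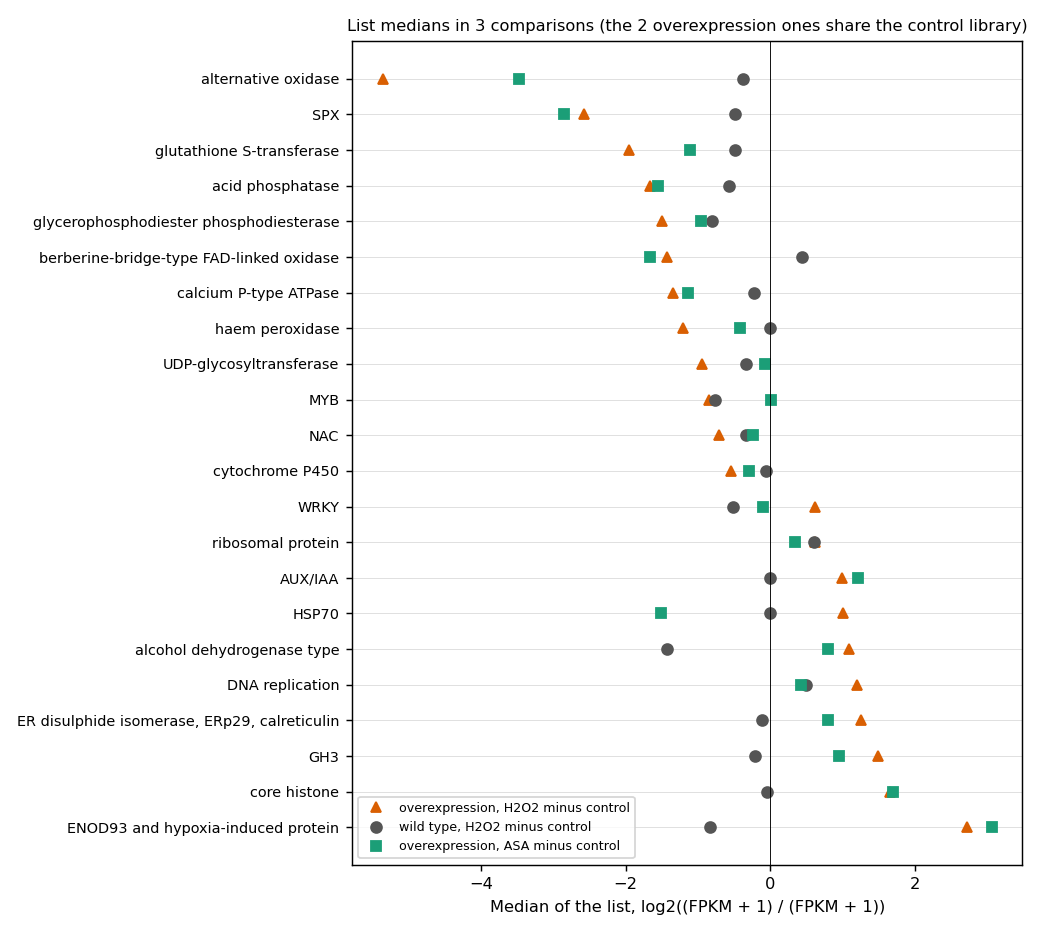
Median difference (log2 of the FPKM + 1 ratio) of 22 lists of described genes for H2O2 in the overexpression line (triangles), H2O2 in wild type (circles) and ASA in the overexpression line (squares); the overexpression comparisons share their control library. Medians in wild type lie closer to 0 for most lists, for example -0.04 against 1.66 for core histones, and the HSP70 squares and triangles lie on opposite sides of 0 at -1.51 and 1.01.

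The ASA comparison of the overexpression line used the same control library, so its values stand side by side with those of H2O2 and are no separate support. ASA had 1171 genes at least 2-fold higher (4.87%) and 2126 lower (8.85%) of 24032, or 1680 and 1422 after centring and 1673 and 1454 with TMM scaling. Taken directly, without the control, the H2O2 library had 648 genes at least 2-fold higher than ASA (2.77%) and 1062 lower (4.53%) of 23430. This H2O2 minus ASA difference can be set beside that of wild type, which shares no library with it. Pearson r was 0.622 and Spearman rho 0.58 across 23350 genes, well above the 0.235 of the comparisons with control. Of the 606 genes at least 2-fold higher in H2O2 than in ASA in the overexpression line, with a mean of at least 1 FPKM over all libraries, 203 were so in wild type and 5 were the other way. Of the 1003 lower ones, 497 were so in wild type and 2 the other way. The share of all genes past 2-fold between H2O2 and ASA in wild type is not given here. These counts therefore have no background beside them and are a description.

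Genes that set the H2O2 library apart from both control and ASA by at least 2-fold numbered 238 higher (0.979%) and 462 lower (1.9%) of 24305, and among described genes 68 (2.51%) and 216 (7.97%) of 2711. The higher ones included 8 HSP70 genes, 5 WRKY genes, 3 DNA replication genes and the NAC gene POPTR_0001s02710. POPTR_0003s16590, with a BAG domain, a co-chaperone of HSP70, had 16.4 FPKM in control, 77.3 in H2O2 and 4.42 in ASA, and in wild type 16.8 in control and 63.3 in H2O2. POPTR_0014s01300, a class I and II aminotransferase, had 3.07, 32.5 and 4.43 in the overexpression line and 5.30 and 7.62 in wild type, and so was not shared. Among the lower ones, POPTR_1614s00200, described as a methyltransferase that uses S-adenosylmethionine, had 359 FPKM in control, 26.8 in H2O2 and 493 in ASA, and 477 and 158 in wild type control and H2O2. Lower too were 8 MYB genes, 8 UDP-glycosyltransferases and 5 glutathione S-transferases.

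Genes without a description made up most of both sides, 983 of the higher and 1574 of the lower genes. The 3 highest were POPTR_0011s12560 (0.213 to 17.3 FPKM), POPTR_0017s12850 (1.77 to 34.6) and POPTR_0003s16240 (0.468 to 16.1). The 3 lowest were Novel00056 (268 to 4.29), POPTR_0008s05180 (848 to 16.8) and POPTR_0005s16430 (52.0 to 0.327). POPTR_0008s05180 was more abundant still in the wild type control, at 2851 FPKM, and had 1242 in wild type H2O2.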

How the data were processed

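FPKM values for 41624 genes in 9 libraries were deposited by the authors. HTSeq 0.6.1, TopHat2 2.0.12, TopHat and Bowtie2 2.2.3 appear in the submitters' processing notes, without their roles or a genome build. The 6 deposited comparison tables (overexpression or antisense against wild type) hold, per the file headers, a scaled read signal per library, log2 fold changes and q-values made by the authors, and served here for descriptions and listings only. They list 2976 genes, 2719 with a description. The labels give poplar suspension cells, but the extraction protocol in them names Arabidopsis stems, and poplar was taken from the other labels and the gene identifiers. None of the identifiers matched the reference gene table (0 matched), so no coordinates or sequences are given.

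All 33158 genes above 0 gave whole reads from their FPKM steps within a relative tolerance of 5e-09 (100%), which supplied depths and exact binomial 95% intervals. Differences used a pseudocount of 1 FPKM, which understates the change of low genes, and a minimum of 1 FPKM in the higher library. With 1 library per condition no count test was run. TMM factors were computed from the recovered reads by the published formula. All steps ran in Python 3.11.15, numpy 2.4.6, pandas 2.3.3 and scipy 1.17.1, with the scripts tested on simulated data. Members, 79 word-pattern lists and rules were chosen with earlier results of these data known, and lists were trimmed after their descriptions and values had been seen. Named genes were the 15 described genes at each end, up to 4 per list with the largest difference, and 3 undescribed genes at each end. POPTR_0002s07290, POPTR_0542s00220, the genes outside that rule in the respiratory, carrier, replication and chaperone paragraphs, and those that stood apart from both control and ASA were chosen after their values were seen.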

Additional observations from a re-analysis of the deposited data

Results flagged for a closer look

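The median H2O2 minus control difference of described alcohol dehydrogenase-type genes had opposite signs in 2 lines. The list of 13 had a median of 1.09 in the overexpression line and -1.43 in wild type. POPTR_0542s00210 had the widest gap, with 3.34 in the overexpression line and -2.51 in wild type. With 1 library per condition the difference between the lines was not tested. Against wild type, the authors had listed 5 of the 13 as lower and 1 as higher under control conditions. Under H2O2 they had listed 7 as higher and 1 as lower. Only listed genes have descriptions, so the opposite medians are no independent evidence. Starting levels differed as well, since the overexpression control held 5.47 FPKM of POPTR_0542s00210 and the wild type control 49.7, and the part of this in the result was not tested.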

How the results depend on the processing

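No paired analysis was possible because each group has 1 library and the results come from no test, and for the same reason no replicate could be left out. Against 1355 higher and 2282 lower genes for H2O2 in the overexpression line, a pseudocount of 5 FPKM gave 626 and 980 and a 4-fold threshold 174 and 420. Against 819 and 760 in wild type, a pseudocount of 0.1 gave 1464 and 1144, one of 5 gave 258 and 382, and 4-fold 45 and 66. Against 1171 and 2126 for ASA, a pseudocount of 5 gave 579 and 788 and 4-fold 172 and 323. The 19 list medians and 268 named genes past 2-fold for H2O2 in the overexpression line kept their sign under another pseudocount, centring and TMM scaling. Of these, 14 medians and 233 genes stayed past 2-fold with a pseudocount of 5, 18 and 258 after centring, and 18 and 256 with TMM scaling. A single library per condition limits every value, and depth limits mainly genes below about 1 FPKM.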
